A study of Mus musculus with 6 samples.

Results

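The secretory pathway genes described here are 40 genes whose products carry newly made proteins, procollagen among them, into and out of the endoplasmic reticulum. They were taken from a list of names and fall into 7 roles: the translocon (5 genes), the translocon-associated protein complex (4), the COPII coat (10), COPII assembly and large cargo (4), cargo receptors (8), the COPI coat (7) and CREB3-like transcription factors (2). All 40 were among the 12470 genes tested, and each of the 40 exceeded background on 6 of 6 arrays.

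The cells were cultured lung fibroblasts of Mmp19 knockout mice (group Mmp19_KO, 3 arrays) and, as controls, wild-type mice (group WT, 3 arrays). Mmp19 encodes a matrix metalloproteinase. Every animal of both groups had been given 0.08 units of bleomycin into the trachea, an injury followed by lung fibrosis. The labels give an age of 11 weeks and female sex for all. Fibroblasts were isolated on day 21 and cultured for 72 hours, and the series text speaks of independent experiments. There was no group without bleomycin, so the comparison is between genotypes in injured lungs, and the cells were measured after culture and not in the lung. RNA was hybridised to one-colour Agilent arrays. Values are scaled log2 signals: the log2 of the processed spot intensity minus the 75th percentile of its array. A change is the knockout mean minus the wild-type mean on that scale, so 1 is a 2-fold difference.

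Some facts of the whole series bear on what follows. Signal at the 75th percentile was 157 to 385 for knockout and 220 to 342 for wild type, and with 3 arrays a group precision is limited. The targeted gene, Mmp19, exceeded background in none of the knockout cultures (0 of 3) and in all wild-type ones (3 of 3), a level at least 5.33-fold lower (limma adjusted p = 0.016). Wild-type replicate 2 stood apart: its correlations with its own group were 0.940 and 0.960, whereas wild-type replicates 1 and 3 correlated at 0.984. Against the female label of all animals, the Y-linked Ddx3y was well above background on all 6 arrays, while Xist was above it on 3 of 3 knockout and 0 of 3 wild-type arrays, so sex or mixed animals and genotype cannot be told apart. Of 11 lung fibroblast markers, all measured, 2 were higher in the knockout (Col1a1 and Col1a2, limma; 0 of 11 with slide as a block), and their summed level ran from 11.32 to 11.43 in the knockout and from 10.40 to 11.14 in the wild type. Of 8 mesothelial markers 6 were higher in the knockout (limma; 5 with slide as a block, 1 without knockout replicate 2 or 3 or wild-type replicate 3), with summed levels of 5.41 to 6.85 in the knockout and 1.53 to 3.56 in the wild type. By the same test 3.3% of all genes were higher, and with slide as a block 1.8% of all genes were called. Epithelial markers (5 of 8 measured) summed to 4.85 to 5.78 in the knockout and 5.16 to 5.47 in the wild type, with Sftpc measured on every array and Epcam and Nkx2-1 not well above background on any. Macrophage markers (4 of 8 measured) summed to 5.58 to 6.78 in the knockout and 5.87 to 6.15 in the wild type. In that list Itgam, Csf1r and Cd14 were well above background on all 6 arrays and Mrc1 on none. Itgam, the highest, ran from 5.15 to 6.55 in the knockout and from 5.58 to 5.95 in the wild type. Lyz2 was above background on 3 of 3 knockout and 1 of 3 wild-type arrays. Its change was 1.02 with groups apart, and it did not pass (limma adjusted p = 0.135). Ptprc was above background on 1 array of each group. The better of 2 Adgre1 probes was so on 2 knockout arrays and 1 wild-type array, and neither gene counted as measured. Endothelial markers (5 of 7 measured) summed to 1.88 to 2.41 in the knockout and 2.0 to 2.50 in the wild type. Kdr, Pecam1, Cdh5, Vwf and Cldn5 were well above background on all 6 arrays, and Tek and Tie1 on none. The part of these markers, or of sex, in the values below was not tested, and in bulk RNA of a culture fewer cells of a type and less RNA per cell cannot be told apart.

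A secreted protein is threaded into the endoplasmic reticulum through the Sec61 channel, folded, and packed by the COPII coat into carriers bound for the Golgi. COPI coats bring escaped residents and cargo receptors back. Procollagen is too long for an ordinary COPII vesicle, and the receptor TANGO1 (gene Mia3) and the ubiquitin ligase adaptor Klhl12 are known for helping to make larger carriers. In bone, the membrane-bound transcription factor Creb3l1 is known to drive type I collagen and secretory genes.

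None of the 40 genes, each read by its brightest tested probe, passed the test between knockout and wild-type cells. The count was 0 past an adjusted p of 0.05 (limma, Benjamini-Hochberg over all probes tested), in a comparison that called 4.8% of all genes tested, 3.3% higher and 1.49% lower. A dimmer probe of Tmed10, described below, did pass, as 1 of 58 tested member probes (1.72%, against 4.64% of all probes). At an unadjusted p under 0.05 there were 5 genes, Copg1, Copb1, Mia3 and Tmed3 with positive changes and Klhl12 with a negative one, or 12.5% of the 40 against 21.8% of all genes (14.4% higher and 7.38% lower). Changes were above 0 in 33 of 40 members (82.5%, against 56.3% of all genes), with a median of 0.28 on the log2 scale against 0.083 for all genes. Changes ran from -0.68 for Creb3l2 to 1.30 for Copg1, and the quartiles of the members were 0.095 and 0.42, against -0.26 and 0.44 for all genes. All knockout arrays lay above all wild-type arrays in 11 members, as in 21.2% of all genes, and below them in 3 (Sec61g, Ssr1 and Klhl12), as in 9.79% of all genes. Dimmer probes of Ssr1 went the other way, with all knockout arrays above all wild-type arrays.

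The intervals show what size of change these arrays leave possible. By the brightest probe of each gene, the 95% interval of the change lay inside -1 to 1 in 28 of 40 members. That is within a 2-fold difference either way. This interval reached above 1 in 9 members and below -1 in 3, and it included 0 in 35. Dimmer probes of some of the 28 reached above 1, such as 0.62 to 1.72 in Tmed10 and -0.047 to 2.39 in Sec63. Others stayed inside, such as Ssr3 with -0.24 to 0.94. For scale, the type I collagen gene Col1a1, whose product travels this route, passed the test. It had 8.59, 7.78 and 8.0 in the knockout and 6.53, 6.69 and 6.73 in the wild type, a change of 1.47 ± 0.26 (SE, n = 3 per group; limma adjusted p = 0.0307). That call was lost with slide as a block (adjusted p = 0.0845), with no filter on dim probes (0.157) and without knockout replicates 1 (0.0590) or 3 (0.134) or wild-type replicates 1 (0.0895) or 3 (0.114). The upper end of the brightest probe's interval lay below that estimate in 38 of 40 members, all but Copg1 and Kdelr2. The 95% interval of Col1a1 itself was 0.86 to 2.09, and the upper ends of some of these 38 lay inside it, such as 1.20 for Mia3. Whether Col1a1 and the members differed in their change was not tested.

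**Figure D1:**
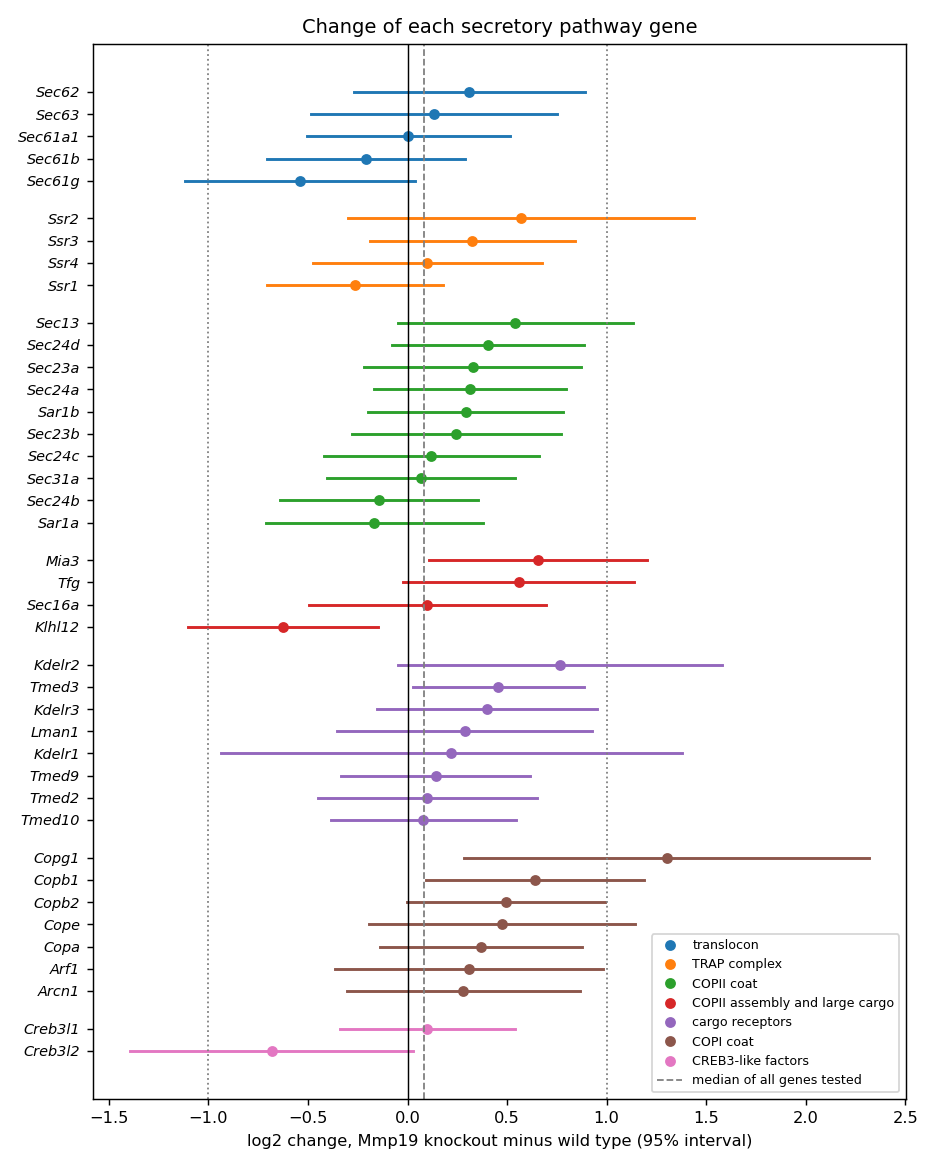
Log2 change (knockout minus wild type, x axis) of each of the 40 genes, grouped by role, with its 95% interval from the limma fit of 3 against 3 arrays; dotted lines mark 2-fold differences and the dashed line the median of all genes tested. Most points lie between 0 and 0.5, all 7 COPI genes and all 8 cargo receptors lie right of 0, and Klhl12, Creb3l2 and Sec61g lie farthest to the left.

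The members' median varied between slides and with the arrays left out. The median difference of the members was 0.14 on slide 1, 0.40 on slide 2 and 0.099 on slide 3, each slide holding 1 knockout and 1 wild-type array. All genes together had medians of -0.0076, 0.33 and -0.031 on the same slides. Slide 2 is the one with wild-type replicate 2, and there 32 of 40 members were higher in the knockout, against 26 and 27 on the other slides. The share of all genes that were higher also rose there, to 68.9%, against 49.6% on slide 1 and 47.7% on slide 3. The sign was the same on all 3 slides in 27 members, positive in 21 and negative in 6, whereas 30.6% of all genes were positive and 16.3% negative on all slides. Relative to the median of all genes, the members stood at 0.20, a gap of 0.19 without wild-type replicate 2 but of 0.10 without knockout replicate 2 and 0.093 without wild-type replicate 1. In 28 of 40 members, leaving out 1 array moved the change by over 1.5 times or turned its sign. The 12 others were Copb1, Copb2, Creb3l2, Kdelr3, Klhl12, Mia3, Sec13, Sec24a, Sec24d, Ssr1, Tfg and Tmed3.

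The number of positive members moved with the scaling as well. When arrays were scaled on the 75th percentile of probes detected on all arrays, the median of all genes moved to -0.034 and 26 of 40 members stayed above 0, with the members' median at 0.17. The gap to all genes was 0.20 there too, and it was 0.14 with quantile normalization. The sign of 13 members turned in at least 1 of 18 alternatives, and their changes ran from -0.26 (Ssr1) to 0.22 (Kdelr1).

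**Figure D2:**
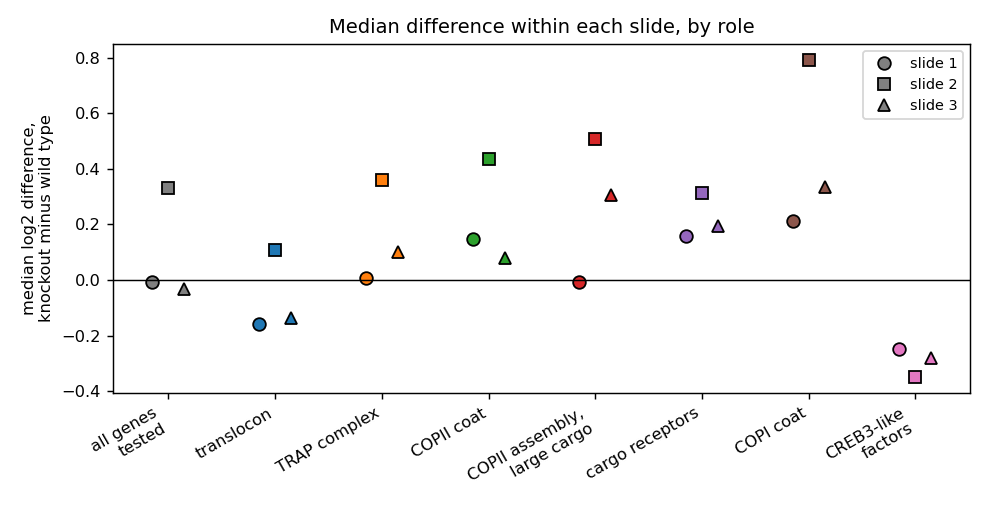
Median log2 difference (knockout minus wild type) within each slide, for all genes tested and for each role; symbols stand for the 3 slides. The COPI coat lies above 0 on every slide (0.21, 0.79 and 0.33) and above all genes each time, and slide 2 is highest in every role but the CREB3-like factors.

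The translocon opens the pathway. Its 5 genes, the channel subunits Sec61a1, Sec61b and Sec61g and the accessory subunits Sec62 and Sec63, had 0 calls and a median change of 0.0046, the value of Sec61a1 itself. Sec61g, the small gamma subunit, had 5.75, 6.45 and 6.23 in the knockout and 6.53, 6.77 and 6.75 in the wild type. Each knockout array was below each wild-type array, yet the change of -0.54 ± 0.24 (SE) did not pass (limma adjusted p = 0.263) and was -0.34 without knockout replicate 1. Sec62 had 6.46, 6.99 and 6.59 in the knockout and 6.08, 6.62 and 6.40 in the wild type. Its groups overlapped, and its change of 0.31 ± 0.25, which did not pass, was 0.16 without knockout replicate 2. A second, dimmer probe of Sec62 read 0.73 ± 0.23 with groups apart, and did not pass either (limma adjusted p = 0.130). Sec61b stood at -0.21 and Sec63 at 0.13.

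The translocon-associated protein complex (TRAP), which helps some proteins through the channel, had 3 of 4 changes above 0 and a median of 0.21. Ssr2, its beta subunit, had 3.31, 3.71 and 3.92 in the knockout and 3.37, 2.32 and 3.55 in the wild type. Wild-type replicate 2 alone was low, and the change of 0.57 ± 0.37 fell to 0.19 without that array. Ssr3, the gamma subunit, had 5.46, 5.94 and 5.57 in the knockout and 5.18, 5.33 and 5.47 in the wild type, groups that overlapped by 1 array of each, with a change of 0.32 ± 0.22 (0.18 without knockout replicate 2). Ssr4 stood at 0.10. Ssr1 stood at -0.26 by its brightest probe, with all knockout arrays below all wild-type arrays. Its other 2 probes had changes of 0.58 and 0.77 with all knockout arrays above, so its sign depended on the probe. Neither of those 2 passed (limma adjusted p = 0.216 and 0.121).

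In the COPII coat 8 of 10 changes were above 0, with a median of 0.27, a range of -0.17 (Sar1a) to 0.54 (Sec13) and 0 calls. Sec13, part of the outer cage, had 3.44, 3.58 and 3.82 in the knockout and 2.88, 2.87 and 3.47 in the wild type. The lowest knockout array lay just under the highest wild-type array, and the change was 0.54 ± 0.25 (limma adjusted p = 0.270). Sec31a, its partner in the cage, stood at 0.069, with an interval of -0.40 to 0.54.

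Among the cargo-binding Sec24 subunits, Sec24d had 2.46, 2.79 and 2.43 in the knockout and 2.28, 2.11 and 2.07 in the wild type. Its groups did not overlap, and the change of 0.41 ± 0.20 did not pass (limma adjusted p = 0.307). Sec24a, Sec24c and Sec24b stood at 0.31, 0.12 and -0.14. The inner coat subunits Sec23a and Sec23b stood at 0.33 and 0.24, with intervals of -0.22 to 0.87 and -0.28 to 0.77. No COPII gene had an interval that left 0 out.

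The paralogs of the pathway were set against each other as the difference of their scaled signals on each array, in 7 pairs. Sar1a minus Sar1b, the pair of GTPases that start the COPII coat, was 3.17, 3.30 and 3.47 in the knockout and 3.82, 3.95 and 3.54 in the wild type, a difference of -0.46 between the groups. The groups did not overlap, but the exact two-sided permutation p of 0.1 is the smallest that 3 arrays against 3 allow, and it was 0.35 adjusted over the 7 pairs. The second probe of Sar1a had a change of 0.28 against -0.17 for the one used here, close to Sar1b at 0.29. Sec23a minus Sec23b differed by 0.084 between knockout and wild type (exact permutation p = 0.9, adjusted 1), Sec24d minus Sec24a by 0.091 (p = 0.6, adjusted 1) and Sec24c minus Sec24b by 0.26 (p = 0.2, adjusted 0.467), all with overlapping groups.

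The genes for COPII assembly and large cargo held the members most tied to procollagen, and they differed in sign. Mia3, the procollagen export receptor TANGO1, had 3.49, 3.61 and 3.50 in the knockout and 3.00, 2.50 and 3.13 in the wild type. Every knockout array was above every wild-type array, with a change of 0.66 ± 0.23 (1.58-fold; limma adjusted p = 0.168). It was 0.47 without wild-type replicate 2, and a second, dim probe of Mia3 read 0.061 ± 0.36.

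Klhl12, the adaptor through which the ligase Cul3 marks Sec31 for large carriers, had 3.02, 3.41 and 3.14 in the knockout and 3.80, 3.74 and 3.91 in the wild type. Every knockout array was below every wild-type array, by 0.78, 0.33 and 0.77 within the slides. The change of -0.63 ± 0.20 (0.648-fold) had the smallest p of the 40 genes and did not pass (limma adjusted p = 0.139). It did pass with the authors' log2 values (-0.74, adjusted p = 0.0463) and with array weights (-0.71, adjusted p = 0.0162), 2 of 18 alternatives, and kept its sign in all 18. Other genes of that ligase, from the wider list of the pathway, stood at 0.078 for Cul3 and at 0.15 and 0.31 for Pef1 and Pdcd6, which form its calcium-dependent co-adaptor, and 0 of these 3 passed.

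Tfg, which organises COPII exit sites, had 4.82, 5.18 and 4.80 in the knockout and 4.10, 4.72 and 4.30 in the wild type, with groups apart and a change of 0.56 ± 0.24 (limma adjusted p = 0.252). Sec16a, the scaffold of exit sites, stood at 0.10 with overlapping groups. Mia2, which pairs with TANGO1 at exit sites, stood at 0.081.

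**Figure D3:**
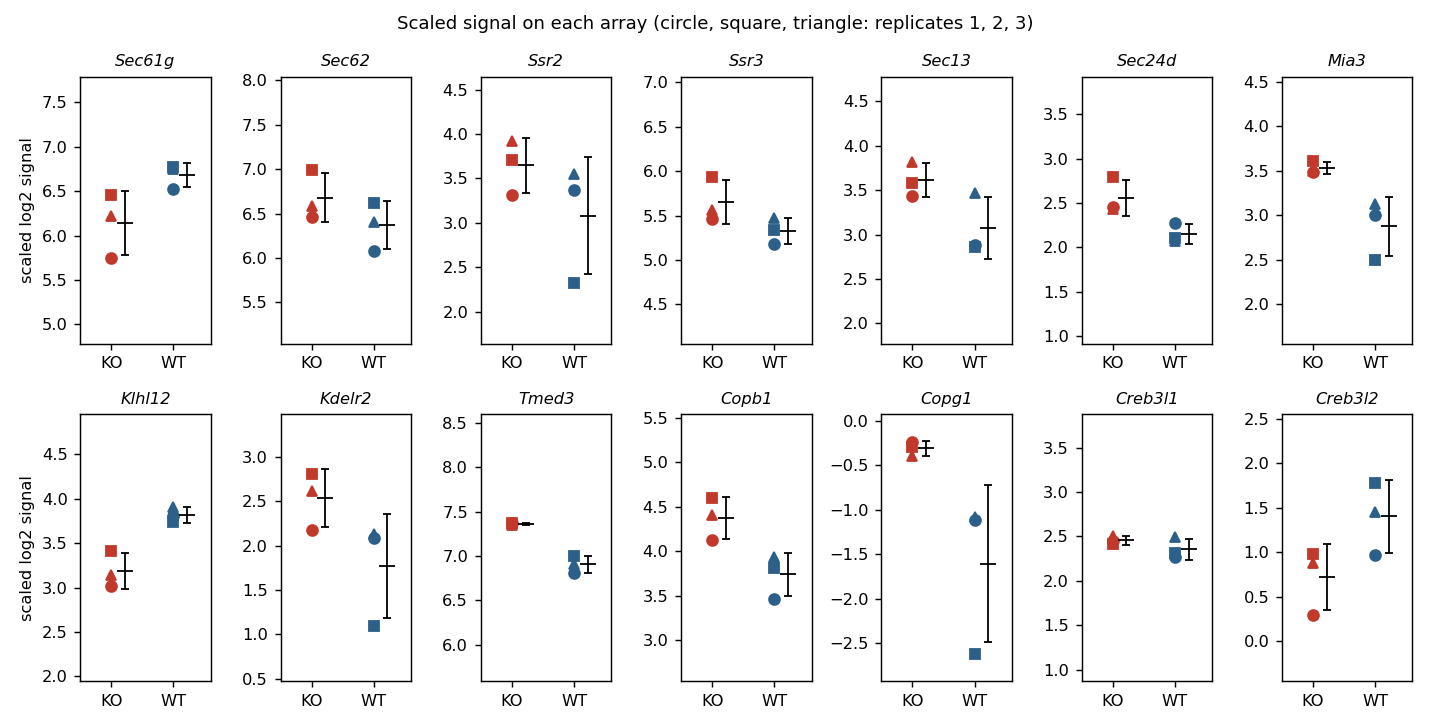
Scaled log2 signal on each array (y axis, each panel spanning 3 log2 units) of the 14 members with the smallest p in their role, knockout (red) left and wild type (blue) right; bars are the mean and SD of 3 arrays. The groups are apart in Sec61g, Sec24d, Mia3, Klhl12, Kdelr2, Tmed3, Copb1 and Copg1, and wild-type replicate 2 (square) is low in Ssr2, Kdelr2 and Copg1.

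All 8 cargo receptors had changes above 0, from 0.080 to 0.76, with a median of 0.25 and 0 calls. Under the 18 alternatives the sign of Kdelr1, Tmed2, Tmed9 and Tmed10 turned in at least 1. Tmed3, of the p24 family of cargo receptors, had 7.37, 7.37 and 7.34 in the knockout and 6.81, 7.0 and 6.90 in the wild type. The knockout arrays were almost equal and all above the wild type, with a change of 0.46 ± 0.18 (1.37-fold; limma adjusted p = 0.212). Its differences within slides were 0.56, 0.36 and 0.44.

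The KDEL receptors return escaped chaperones to the endoplasmic reticulum. Kdelr2 had 2.17, 2.81 and 2.62 in the knockout and 2.08, 1.09 and 2.13 in the wild type. The groups were apart by a narrow margin, and the change of 0.76 ± 0.34 was 0.43 without wild-type replicate 2, the low array. Kdelr1 stood at 0.22 by its brightest probe, with 2.19 on wild-type replicate 2 against 0.36 and 0.52 on the other wild-type arrays. It stood at 0.80 without that array. The second probe of Kdelr1 was not high there, with 0.030 on wild-type replicate 2 against 0.57 and 0.77. Its groups were apart, and its change of 0.79 ± 0.24 did not pass (limma adjusted p = 0.128). The intervals of the brightest probes were wide, -0.93 to 1.38 for Kdelr1 and -0.049 to 1.58 for Kdelr2. The differences from Kdelr1 given below used its brightest probe. Kdelr3 stood at 0.40 with differences of 0.40, 0.41 and 0.39 within the slides. Between knockout and wild type, Kdelr3 minus Kdelr1 differed by 0.18 (exact permutation p = 0.9) and Kdelr2 minus Kdelr1 by 0.54 (p = 1), both adjusted to 1 over the pairs. Without wild-type replicate 2 these differences were -0.41 and -0.38. Lman1, the mannose-binding cargo receptor of the intermediate compartment, stood at 0.29, and at 0.079 without wild-type replicate 2. A dimmer probe of Lman1, under another accession, read 0.63 ± 0.22 with groups apart, and did not pass (limma adjusted p = 0.172).

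Tmed10, another p24 protein, was read differently by its probes. Its brightest probe had 6.29, 6.61 and 6.34 in the knockout and 6.23, 6.37 and 6.41 in the wild type, overlapping groups with a change of 0.080 ± 0.20. Its second probe, for the same transcript accession, had 5.38, 5.36 and 5.36 in the knockout and 4.47, 3.82 and 4.30 in the wild type, a change of 1.17 ± 0.23 with groups apart (limma adjusted p = 0.0413). It was the only one of the 58 tested member probes past the threshold, against 4.64% of all probes. That probe passed in 10 of 17 alternatives, with changes from 0.98 to 1.30, but not with slide as a block (limma adjusted p = 0.0906) or with no filter on dim probes (0.229). Dropping any one knockout array also ended the call (0.0939 to 0.180), as did dropping wild-type replicate 1 (0.0653) or 3 (0.133). Positions of the probes within the transcript were not used here.

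The brighter probe read the smaller change in several other members as well. Of 17 members with more than 1 tested probe, the other probes averaged above the brightest in 12 (70.6%), against 59.8% of 2819 such genes in all. Over these members the median change was 0.22 on the brightest probe and 0.48 on the others. Over all genes with several probes it was 0.051 and 0.16, a rise in the same direction. Sec63 read 0.13 ± 0.26 on its brightest probe and 1.17 ± 0.51 on a dimmer one, and Kdelr1 read 0.22 ± 0.49 and 0.79 ± 0.24. Probes of 1 gene differed in sign in Copg1, Sar1a and Ssr1, 3 of 17, against 33.1% of all genes with several probes. When a gene was taken as the mean of its probes, the median of the 40 members was 0.35, with 35 positive and still 0 calls.

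**Figure D4:**
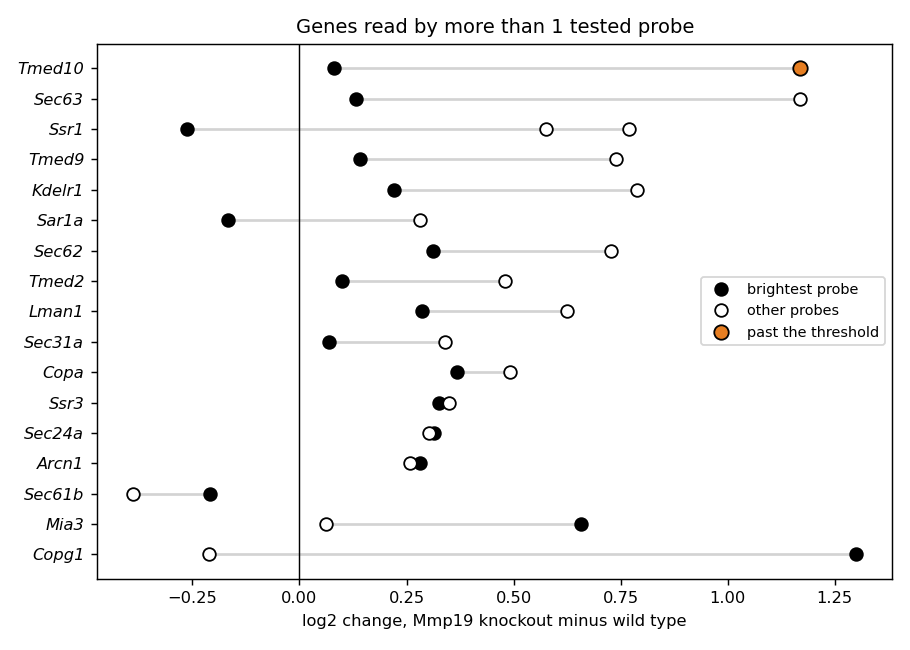
Log2 change (knockout minus wild type, x axis) of every tested probe of the 17 members with more than 1, brightest probe filled and the others open; the probe past the threshold is orange. In 12 of 17 genes the other probes average to the right of the brightest one, most in Tmed10, Sec63 and Ssr1, and in Copg1 and Mia3 they lie far to its left.

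In the COPI coat, which carries retrograde traffic from the Golgi, all 7 changes were above 0, from 0.28 to 1.30, with a median of 0.48, the highest of the 7 roles. Each of the 7 kept its sign in all 18 alternatives. The groups did not overlap in 5 (Copa, Copb1, Copb2, Cope and Copg1), beside 21.2% of all genes, and none of the 7 passed the test. Copb1, the beta subunit, had 4.13, 4.60 and 4.40 in the knockout and 3.46, 3.81 and 3.94 in the wild type, a change of 0.64 ± 0.23 (1.56-fold; limma adjusted p = 0.177). It was positive by 0.67, 0.79 and 0.46 within the slides.

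Copg1, the gamma subunit, had -0.23, -0.29 and -0.40 in the knockout and -1.12, -2.63 and -1.08 in the wild type. Knockout arrays were close together and above all wild-type arrays, of which replicate 2 was far below its group. The change of 1.30 ± 0.43 (2.46-fold; limma adjusted p = 0.147) was 0.79 without that array and 0.65 with normexp background correction, and it passed only with array weights (0.86, adjusted p = 0.0438). A second probe of Copg1, under another accession, read -0.21 ± 0.30. Copb2 stood at 0.49, Cope at 0.48 and Copa at 0.37 (0.20 and 0.23 without wild-type replicate 2). Arcn1 stood at 0.28 and Arf1, the GTPase that recruits the coat, at 0.31, but at 0.10 and 0.034 without knockout replicate 2.

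The CREB3-like factors, kept in the membrane of the endoplasmic reticulum until they are cut and move to the nucleus, did not show a common sign. Creb3l1 had 2.45, 2.41 and 2.51 in the knockout and 2.26, 2.31 and 2.49 in the wild type, overlapping groups with a change of 0.10 ± 0.19 and an interval of -0.34 to 0.54. Creb3l2, which in mouse cartilage is known to drive Sec23a, had 0.29, 0.98 and 0.88 in the knockout and 0.97, 1.78 and 1.46 in the wild type. Knockout was lower on each slide (-0.68, -0.79 and -0.57), but the groups overlapped by one knockout array and the change of -0.68 ± 0.30 did not pass (limma adjusted p = 0.254, and 0.155 with slide as a block). Creb3l1 minus Creb3l2 was 2.16, 1.43 and 1.63 in the knockout and 1.29, 0.54 and 1.04 in the wild type. The groups were apart, with a difference of 0.78, an exact two-sided permutation p of 0.1 and 0.35 adjusted over the 7 pairs. Transcript levels do not show how much of either factor is cut.

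Some of these genes carry in their promoters elements that the unfolded protein response and CREB3-like factors are known to bind. RefSeq promoter windows on the assembly GRCm38.p6 were found for 33 of the 40 members, and the 250 bases before the start were searched on both strands. The core of the unfolded protein response element, TGACGTGG, was in 4 members (12.1%), against 0.72% of 17492 protein-coding genes with a window. These were Arf1, Copb1, Kdelr3 and Sec24d, whose changes of 0.31, 0.64, 0.40 and 0.41 were all above 0 and did not pass. Changes were above 0 in 82.5% of all members, so the shared sign sets these 4 little apart. The full cyclic AMP response element, TGACGTCA, was in Cope and Klhl12 (6.06%, against 2.2%), 2 genes of opposite sign. Neither form of the endoplasmic reticulum stress element, ERSE (0.154% of coding genes) or ERSE-II (0.0515%), was found in a member. No member window held more than 1 of these motifs. They were chosen with the values known, and a match is not a site shown to be bound. The stretches that follow show where the letters stand, in capitals, on the strand of the gene, with CCACGTCA being the element read on the other strand; Klhl12 is shown as the member with the smallest p.
Arf1, chr11:59228199-59228286, minus strand, 84 to 77 bases before the start: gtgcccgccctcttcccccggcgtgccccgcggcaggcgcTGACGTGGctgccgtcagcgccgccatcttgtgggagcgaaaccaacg
Copb1, chr7:114254681-114254748, minus strand, 28 to 21 bases before the start: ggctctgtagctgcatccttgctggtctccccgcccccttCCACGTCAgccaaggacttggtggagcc
Kdelr3, chr15:79516338-79516407, plus strand, 30 to 23 bases before the start: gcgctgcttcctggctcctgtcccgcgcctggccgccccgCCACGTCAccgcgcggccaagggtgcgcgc
Sec24d, chr3:123267430-123267495, plus strand, 26 to 19 bases before the start: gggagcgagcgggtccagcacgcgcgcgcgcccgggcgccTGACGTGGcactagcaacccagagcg
Klhl12, chr1:134455465-134455530, plus strand, 26 to 19 bases before the start: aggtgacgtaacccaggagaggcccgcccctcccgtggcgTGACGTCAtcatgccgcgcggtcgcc

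The wider pathway was counted in the same way. Of 108 other secretory genes (signal recognition and signal peptidase, oligosaccharyl transferase, tethers and SNAREs, further cargo receptors, COPI and Golgi genes and related transcription factors) 101 were tested. Past the threshold 0 were higher and 1 was lower in the knockout (0.99%, against 4.8% of all genes, 3.3% higher and 1.49% lower). At an unadjusted p under 0.05 there were 23 positive and 1 negative (23.8%, against 21.8% of all genes, 14.4% higher and 7.38% lower). Changes were above 0 in 77 (76.2%, against 56.3% of all genes), and the median was 0.31, against 0.083 for all genes. By group the medians were 0.32 for targeting and signal peptidase, 0.39 for oligosaccharyl transferase, 0.26 for COPII tethers and SNAREs, 0.48 for other cargo receptors, 0.28 for COPI and Golgi genes and 0.33 for the transcription factors.

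The gene that passed, Rint1, belongs to the tether that receives COPI vesicles at the endoplasmic reticulum. It had -0.23, -0.034 and -0.43 in the knockout and 1.08, 0.61 and 1.13 in the wild type, a fall of 1.17 ± 0.23 log2 units (change -1.17; SE, n = 3 per group; limma adjusted p = 0.0428). Knockout was lower on every slide, but the call was lost with slide as a block (adjusted p = 0.110) and in 5 of 6 fits without 1 array (0.0743 to 0.202), all but that without wild-type replicate 2. Nbas and Zw10, its partners in that tether, had changes of 1.15 and -0.11 that did not pass. Without wild-type replicate 2 these were 0.66 and -0.42. Nbas passed with array weights (0.81, limma adjusted p = 0.0484).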

How the data were processed

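Total RNA of 3 knockout and 3 wild-type cultures was measured on one-colour arrays. Groups come from the sample titles. The deposited scanner tables hold spot intensities from Agilent Feature Extraction 10.7.3.1 on a design annotated on mm9, per the file headers, while the submitters' processing notes name version 9.1. The authors' deposited log2 table of 35844 probes, whose normalization and centring are not given in the sources used here (column medians 5.51 to 5.76), served as an alternative.

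Outlier spots were removed and the log2 processed intensities averaged per probe (55681 probes). Each array's 75th percentile was subtracted. Probes had to exceed background on every array of either group, which 24214 did, and were fitted with limma 3.58.1 (R 4.3.3), two-sided, threshold 0.05. Probes were named by RefSeq accession (47.4% matched, GRCm38.p6 names), and a gene is its tested probe with the highest mean. The steps were checked on simulated data, with added changes larger than that of any member. That check did not cover changes of the members' size. Members, lists and motifs were chosen with earlier results of these data known. Members past the threshold, the 2 per role with the smallest p and up to 8 other secretory genes past it were printed per array, and further genes were named after their values were seen. Slide and replicate number coincide. Deviations from group means correlated at 0.0959, -0.0206 and 0.210 within slides, so arrays were not treated as pairs. There were 18 alternatives for each gene.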

Additional observations from a re-analysis of the deposited data

How the results depend on the processing

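The count of members past the threshold was 0 in 16 of 18 alternatives, 1 with the authors' log2 values (Klhl12) and 2 with array weights (Klhl12 and Copg1), where 21.7% of all genes were called. The members' median change of 0.28 was 0.15 with the authors' log2 values and lay between 0.15 and 0.33 when 1 array was left out. The count of all probes, 1124, was 632 with normexp, 113 with no filter on dim probes, 650 over probes well above background on all arrays, 5069 with array weights, 385 with the replicate block, which is also slide as a block, and between 107 and 1716 when 1 array was left out. The other secretory genes past the threshold, 1 here, were 2 with cyclic loess and 2 with the authors' log2 values, 19 with array weights, 0 with no filter or with the replicate block, and between 0 and 1 when 1 array was left out. The replicate block changed no member's call. The share of called genes that were higher, 68.9%, moved both ways. It was 58.1% with scaling to probes detected on all arrays, 56.2% with the authors' log2 values, 54.2% with array weights and 51.4% without wild-type replicate 2. It was 75.6% with normexp, 73.7% with no filter, 74.2% over probes well above background on all arrays and 74.3% without wild-type replicate 3. With normexp, Sar1a minus Sar1b was -0.77 and Sec24c minus Sec24b 0.047. The members' 95% intervals reached a median of 0.55 to each side, which limits what 3 arrays against 3 could show.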
